A study of Mus musculus with 6 samples.

Results

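Th9 and Th2 cells are both helper T cells primed with interleukin-4, and the comparison described here asks how their accessible chromatin differed. Of the 6 ATAC-seq libraries of wild-type mouse cells in the series, the 2 Th9 and the 2 Th2 libraries were used. ATAC-seq marks open chromatin by letting a transposase cut and tag the DNA that nucleosomes leave exposed, and each library was deposited as a list of peaks. Overlapping or touching peaks of the 4 lists on chromosomes 1 to 19 were joined, which gave 206532 regions. These regions were then divided by the libraries in which a peak was called.

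Both subsets were grown from naive CD4 T cells of C57BL6/J mice, labelled as spleen, and stimulated with antibodies to CD3 and CD28 in the presence of IL-4, IL-2 and an antibody that neutralises IFN-γ. TGF-β1 was added for Th9 cells and not for Th2 cells. No allele, knockdown or drug distinguished the groups. The libraries carry replicate numbers 1 and 3, and nothing in the sources states that they came from separate mice, so the spread between them may be technical. The cells were bulk cultures, in which fewer cells with an open site and less opening per cell cannot be told apart.

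As background, IL-4 acts through STAT6 to induce GATA3, the transcription factor that establishes the Th2 programme and opens the cluster that holds Il4, Il5 and Il13. TGF-β signals through SMAD proteins, and together with IL-4 it diverts cells towards production of IL-9, a growth factor for mast cells and a mediator of allergic inflammation. IRF4, PU.1, BATF and STAT5 are among the factors known to act on Il9. BATF binds with JUN proteins at AP-1 sites, and AP-1 itself is activated by signals from the T cell receptor.

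The sequences of 7 regions show the places on which the results turn. Each is the central 200 bases of a region, read 5′ to 3′ on the + strand of the RefSeq sequence of GRCm38.p6 (mm10). Capitals mark a match, on either strand, to one of the short sequence words described further on. The first 3 lie at cytokine genes and were called in all 4 libraries. These are a region at the start of Il9 (chr13:56481910-56482109, exon of Il9, a GATA word), one 20 kb upstream of Il9 (chr13:56502653-56502852, intergenic, a STAT5 word) and one in an intron of Rad50 near Il13 (chr11:53663171-53663370, a GATA word).
Il9 start: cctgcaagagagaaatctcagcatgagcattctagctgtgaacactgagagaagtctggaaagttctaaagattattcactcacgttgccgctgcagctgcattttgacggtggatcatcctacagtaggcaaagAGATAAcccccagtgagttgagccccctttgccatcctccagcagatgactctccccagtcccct
Il9 upstream: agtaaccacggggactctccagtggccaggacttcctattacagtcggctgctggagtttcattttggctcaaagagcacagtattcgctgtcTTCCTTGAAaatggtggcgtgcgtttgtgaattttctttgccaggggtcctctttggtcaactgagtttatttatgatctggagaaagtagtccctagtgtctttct
Rad50 intron: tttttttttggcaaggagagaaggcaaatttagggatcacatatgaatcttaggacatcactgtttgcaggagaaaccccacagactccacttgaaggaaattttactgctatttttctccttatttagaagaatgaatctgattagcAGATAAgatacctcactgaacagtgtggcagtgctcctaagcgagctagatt
The next 2 were called in both Th9 and neither Th2 library, in an exon of Il1r1 near the start of Il1rl2 (chr1:40315493-40315692, a STAT5 word) and across the outermost annotated 5′ end of Ctla4 (chr1:60886875-60887074, a STAT5 and a SMAD word).
Il1rl2: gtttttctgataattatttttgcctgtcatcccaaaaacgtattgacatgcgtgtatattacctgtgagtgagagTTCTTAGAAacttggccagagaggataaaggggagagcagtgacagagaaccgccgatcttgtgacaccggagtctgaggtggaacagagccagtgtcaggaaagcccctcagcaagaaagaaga
Ctla4: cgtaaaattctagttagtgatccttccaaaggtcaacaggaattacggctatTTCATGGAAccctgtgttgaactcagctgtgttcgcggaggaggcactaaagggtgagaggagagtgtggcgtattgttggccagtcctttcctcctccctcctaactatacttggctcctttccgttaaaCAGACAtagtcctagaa
The last 2 stand for sites called in Th2 cells alone or at a higher rank there. The intergenic site beyond Gata3 was called in both Th2 and neither Th9 library (chr2:9816160-9816359, an AP-1 and a RUNX word), and the intergenic site near Nfkbia was called in all 4 libraries at a lower rank in Th9 (chr12:55457834-55458033, a STAT6 and a SMAD word).
Gata3 distal: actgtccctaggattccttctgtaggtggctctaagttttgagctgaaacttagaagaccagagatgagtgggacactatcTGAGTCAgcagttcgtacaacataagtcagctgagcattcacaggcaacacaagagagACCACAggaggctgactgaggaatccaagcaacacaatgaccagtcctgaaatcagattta
Nfkbia: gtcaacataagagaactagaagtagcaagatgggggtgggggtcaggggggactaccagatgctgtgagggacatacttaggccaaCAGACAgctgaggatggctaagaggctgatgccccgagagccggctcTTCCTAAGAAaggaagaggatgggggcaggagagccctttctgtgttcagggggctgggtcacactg

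The strength of a region was given as a percentile. The fold enrichment of each peak over background was ranked within its own library, and the highest-ranked peak in a region gave the region its value, so that 100 is the top of a list and 0 the bottom. The lists held 98200 to 136987 peaks and covered 78 to 113 Mb. The shortest list was Th9 replicate 3, and the lowest fold enrichment in a list ranged from 1.73 in Th2 replicate 3 to 2.11 in Th9 replicate 1. The percentiles of regions called in all 4 libraries had a Spearman correlation of 0.871 between the Th9 libraries, of 0.903 between the Th2 libraries and of 0.816 to 0.848 across subsets, as a description over regions that share these libraries.

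The 3 marker genes set for these cells were examined first. Il9 was marked by its start, which stood at percentiles 88.5 and 90.6 in Th9 replicates 1 and 3 and at 36.9 and 44.3 in Th2 replicates 1 and 3. Both Th9 values lay above both Th2 values. The start of Gata3 stood at 95.5 and 93.7 in Th9 and at 87.5 and 89.9 in Th2, near the top of every list. Il13, which encodes a cytokine of type 2 inflammation, had a small region at its start that was called at 51.3 and 70.9 in Th2 and in neither Th9 library, whereas its region 1498 bp upstream stood at 90.05 and 90.3 in Th9 and at 87.6 and 86.7 in Th2. Il9 thus separated the subsets by label, and Gata3 and Il13 were open in both.

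All 4 libraries shared 58886 regions (28.5% of the total). The 2 Th9 libraries shared 4879 regions (2.36%) that had no call in Th2, termed Th9-only here. The 2 Th2 libraries shared 13757 regions (6.66%) that had no call in Th9, termed Th2-only. The replicate 1 libraries of the 2 subsets shared 11224 regions (5.43%) that neither other library held, which is more than the Th9-only count. The replicate 3 libraries shared 2427 regions (1.18%) in the same way. A further 84889 regions (41.1%) were called in 1 library only. The Th9-only count therefore lay within the range of counts shared across subsets, and the Th2-only count lay above it. The part of unequal sequencing depth between the libraries in these counts was not tested. Both the Th9-only and the Th2-only count depended on the threshold of the lists. With peaks under a fold enrichment of 2.2 left out of every list, the counts were 4084 and 5393, and with a minimum of 4 they were 1005 and 2221.

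One-subset regions were weak for the most part. Taking the lower of the 2 percentiles in the calling subset, Th9-only regions had a median of 18.8 and Th2-only regions a median of 28.7. A lower percentile of at least 50 was reached by 622 Th9-only regions (12.7%) and by 3386 Th2-only regions (24.6%). At the other end, between 99.2% and 99.8% of the regions in the top 10% of any library were called in all 4. The strongest accessible sites of Th9 and Th2 cells were thus called in both.

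Regions of either class lay far from gene starts. Only 96 Th9-only regions (1.97%) and 205 Th2-only regions (1.49%) had their centre within 1 kb of the start of a protein-coding gene, against 20.2% of the regions called in all 4. In single libraries, where regions absent from both lists of the other subset were counted, with or without a call in the replicate, the shares within 1 kb were 1.33% and 2.19% for Th9 and 1.2% and 1.93% for Th2. These ranges overlap, so the 2 classes were not separated by this measure. At a minimum fold enrichment of 4, the shares of the classes were 21.9% and 3.60%. Introns held 46.3% of Th9-only and 40.2% of Th2-only regions, and 49.5% and 57% were intergenic. With 2 libraries a subset, an exact two-sided permutation test cannot give a p-value below 0.333. The values from single libraries are given to show how far the libraries differ. They come from larger sets, of 36862 and 16872 regions for Th9 and 38809 and 29618 for Th2. Each set contains its class and rests on the same 2 lists of the other subset. Their spread is thus not an error of the class values, which can lie outside it.

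A total of 2450 genes had a Th9-only region within 100 kb of their start, for which theirs was the nearest start, and 4720 had a Th2-only region, of 17536 genes with any region. Both kinds were found at 802 genes, which are 32.7% of the first set and 17% of the second. Rbpj, described further on, was one of the 802.

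Base composition separated the classes. The central 200 bases of Th9-only regions had a median GC content of 50.0%, and those of Th2-only regions one of 45.5%. Single libraries gave 49.5% and 50.5% for Th9 and 47.0% and 46.5% for Th2, so that the subsets did not overlap. The surrounding 100 kb differed in the same direction, with a median GC of 45.4% around Th9-only and of 40.6% around Th2-only regions. When all regions were divided into 5 equal groups by the GC of the surrounding 100 kb, the Th9-only share was larger at every step, from 0.612% in the most AT-rich group to 4.85% in the most GC-rich, and the Th2-only share was smaller at every step, from 11.4% to 2.49%. The balance also varied between chromosomes. On chromosome 3, there were 6.01 Th2-only regions for each Th9-only region, and on chromosomes 7 and 8 there were 1.34. With a −log10 q of 5 as the minimum for a peak, the GC difference between the classes was 2.0 points in place of 4.5, and the Th9-only share differed by 0.05 points between the outer groups in place of 4.23.

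**Figure D1:**
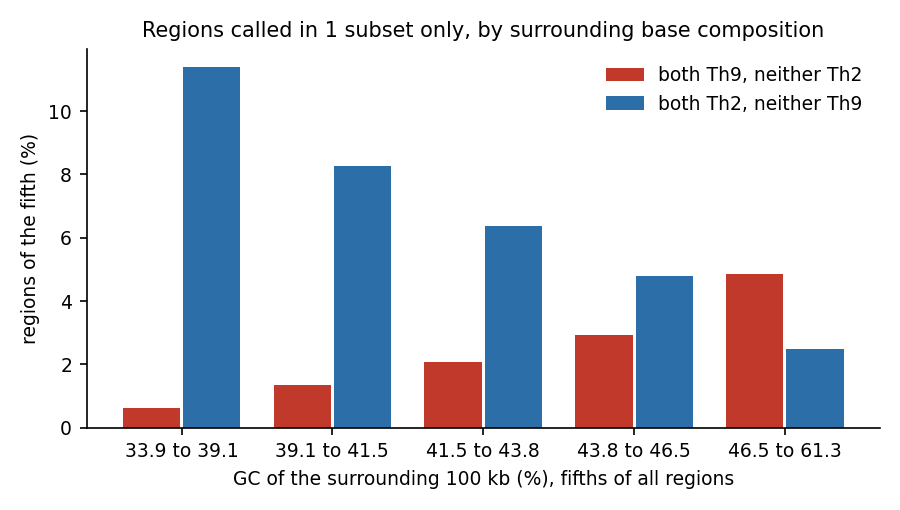
Share of regions called in 1 subset only (vertical axis, percent of the regions in each of 5 groups) by the GC content of the surrounding 100 kb (horizontal axis, percent). Red bars are Th9-only regions, from 0.612% to 4.85%, and blue bars are Th2-only regions, from 11.4% to 2.49%, and the 2 series run in opposite directions.

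Composition also moved with the libraries themselves. Among regions called in all 4, the Spearman correlation of percentile with GC was 0.191 and 0.218 in the Th9 libraries and 0.129 and 0.153 in the Th2 libraries. The part of this library property in the GC difference between classes was not tested.

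A set of 8 short words that stand for the binding preferences of factor families was searched in the central 200 bases of every region on both strands. They were AGATAA for GATA factors, TGANTCA for AP-1 and BATF, TTC and GAA spaced by 3 bases for STAT5 and by 4 bases for STAT6, CAGACA for SMAD proteins, AGGAAGTG for ETS factors, TGTGGT for RUNX factors and GCGCGC as a mark of CpG-rich sequence. A window may hold several words, and a match is a description of sequence and not of binding.

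The AP-1 and BATF word gave the widest separation. It was found in 5.82% of Th9-only regions (95% Wilson interval 5.20 to 6.51%, counting error only), in 15.1% of Th2-only regions (14.5 to 15.7%) and in 8.38% of all regions. In single libraries, the shares were 6.08% and 4.87% for Th9 and 10.2% and 13.2% for Th2. Both Th9 values lay below the share of all regions and both Th2 values above it.

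The GATA word, AGATAA, followed the same direction with a narrower margin. It was present in 7.54% of Th9-only, 11.6% of Th2-only and 8.15% of all regions, with 7.83% and 5.90% in the single Th9 libraries and 9.72% and 10.7% in the single Th2 libraries. The SMAD word was the reverse, at 23.6% of Th9-only, 19.3% of Th2-only and 20.6% of all regions, and its single libraries did not overlap (22.3% and 25.1% for Th9, 20.1% and 19.6% for Th2). SMAD proteins transmit the TGF-β signal that Th9 cultures received, and the part of that signal in the difference was not tested. At a minimum fold enrichment of 4, the SMAD difference was -0.15 points, whereas the AP-1 and GATA differences kept their direction under every threshold tried.

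The STAT6 word was at 4.24% of Th9-only, 5.23% of Th2-only and 4.38% of all regions. Its single libraries did not overlap by a narrow margin (4.23% and 3.70% for Th9, 4.39% and 5.39% for Th2), and its difference changed sign at a −log10 q of 5 (1.84 points) and at a fold enrichment of 4 (1.60 points).

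The STAT5, RUNX and ETS words overlapped between the single libraries of the subsets. The STAT5 word was present in 7.89% of Th9-only and 5.68% of Th2-only regions, but single libraries gave 5.42% and 5.90% for Th9 and 5.43% and 5.87% for Th2, which overlap. For the RUNX word, at 20.05% and 16.1%, the single Th9 value of 16.2% lay below the single Th2 value of 16.4%. The ETS word stood at 2.3% and 2.60%, with 2.22% and 2.38% in the single Th9 and 2.06% and 2.96% in the single Th2 libraries. The CpG-rich word was rare in both classes, at 0.984% and 0.422%.

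**Figure D2:**
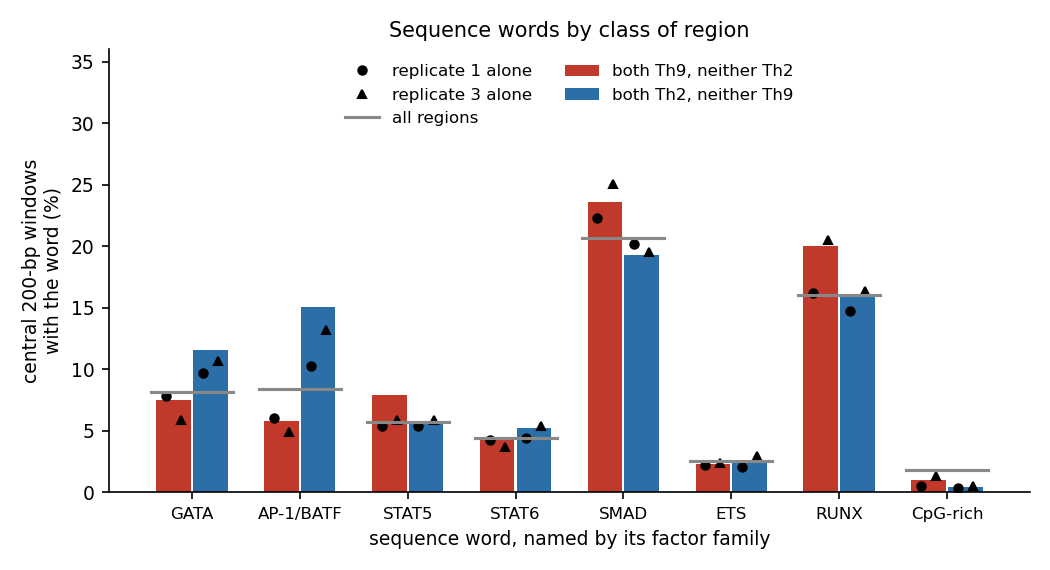
Share of central 200-base windows that hold each word (vertical axis, percent) for Th9-only regions (red bars), Th2-only regions (blue bars) and all regions (grey lines). Circles and triangles give the same share from the replicate 1 and the replicate 3 library alone, and they leave the subsets apart for the AP-1/BATF, GATA and SMAD words and narrowly for STAT6, and overlapping for STAT5, RUNX, ETS and CpG-rich words.

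Since AT-rich and GC-rich sequences hold different words by composition alone, the shares were taken again within bins of GC. The AP-1 and BATF word was found in 7.92% of Th9-only and 16.6% of Th2-only regions with a GC content under 45%, in 5.91% and 14.7% between 45% and 55%, and in 3.45% and 7.94% at 55% or above. Its gap was present in every bin. For the GATA word, the shares were 13.7% and 16.3%, 7.19% and 8.30%, and 2.0% and 4.40% in the same bins, a narrower gap in every bin than without bins. The SMAD word was in 22.9% of Th9-only and 16.2% of Th2-only regions in the first bin and in 24.95% and 21.5% in the second, but in 20.9% and 23.3% in the third, where its order turned. The STAT5 word was at 14.3% and 7.73%, 7.0% and 4.19%, and 3.36% and 3.11%.

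The strongest Th9-only regions with a gene start within 100 kb were led by one at 93.4 and 95 in Th9 replicates 1 and 3, located 25967 bp upstream of Rec114, a gene of meiotic recombination. It was 178 bp long. The region near Il1rl2, which encodes the receptor for IL-36, stood at 91.9 and 88.2, and a region 88394 bp upstream of Rgs1, a regulator of G-protein signalling that limits lymphocyte migration, at 89.3 and 87.7. Others in the 10 strongest lay near Ptger2, a receptor for prostaglandin E2 (86.1 and 85.3, 46291 bp downstream), and near Lpp, which encodes an adhesion protein (86.7 and 85.3, 54384 bp upstream). The other 5 lay near Frmd6, Zkscan3, Stfa3, Fam89a and Phc3, at 85 to 93.2. None of these sites carried a call in either Th2 library.

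Among the strongest Th2-only regions, one in an intron of Grk5, a kinase that desensitises G-protein-coupled receptors, stood at 99.9 and 99.6 in Th2 replicates 1 and 3. It was 214 bp long and had no call in Th9. The next, in an intron of Oxct1, an enzyme of ketone body use, stood at 93.7 and 92.4, and one 23631 bp upstream of Tbcc at 92.6 and 92.1. Regions in exons of Eif4e, which encodes the cap-binding protein of translation (89.5 and 89.9), and of Rictor, a subunit of mTOR complex 2 (91.9 and 89.4), were also among the 10. The other 5 lay near Ypel1, Rab30, Ube2v2, Ap1s3 and Vmn2r87, at 89.6 to 92.5. The windows at Oxct1, Tbcc, Rab30 and Rictor held the AP-1 and BATF word.

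In regions called in all 4 libraries, the question was whether a shared site ranked differently. The difference between the mean Th9 and the mean Th2 percentile had a median of -0.64 and ran from -23.9 at the lowest to 18.6 at the highest of the central 90%. It was at least 20 points in favour of Th9 in 2493 regions (4.23%) and in favour of Th2 in 4346 (7.38%). Both Th9 percentiles were above both Th2 percentiles in 10317 regions (17.5%), and both were below in 13528 (23%). The median absolute difference between subsets was 5.86 points, whereas that between replicates was 8.31 for Th9 and 5.66 for Th2.

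No shared region passed an adjusted p of 0.05 by limma on percentiles, with Benjamini-Hochberg adjustment over all 58886 regions (0% called). An unadjusted p under 0.05 was reached by 6285 regions, of which 2148 had the higher mean in Th9 and 4137 in Th2, and the smallest adjusted p was 0.263. The same test on log2 fold enrichment, quantile-normalised across the 4 lists, called 259 regions higher in Th9 (0.44%) and 816 lower (1.39%). Fits with 1 library left out assume that the lone library of a subset varies like the other subset, and they are given further on. Calls from the quantile-normalised scale are named as such in what follows. The regions with the widest gaps between the subsets are described by their values. Those regions were chosen on percentiles of the same fold enrichments, so a pass on that scale is no separate test of them.

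The widest gap in favour of Th9 was found 11327 bp downstream of the start of Tmem176b, which encodes a membrane protein of myeloid and T cells. The region stood at 81.0 and 85.9 in Th9 replicates 1 and 3 and at 8.85 and 3.56 in Th2 replicates 1 and 3. Both Th9 libraries were high and both Th2 libraries near the bottom of their lists. The difference was 77.2 ± 14.7 points (SE, n = 2 and 2; limma adjusted p = 0.263). By limma on quantile-normalised values, the adjusted p was 0.0166, and over the alternatives it ranged from 0.00461 to 0.433. Most of the central window of this region was a repeat of short units such as ATAGAG. The part of that repeat in the difference was not tested.

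An intron of Osbpl3, an oxysterol-binding protein, held the next at 93.4 and 88.7 in Th9 and 18.5 and 27.2 in Th2. A region 2157 bp upstream of Kdm6b, a demethylase that removes the repressive mark on lysine 27 of histone H3, stood at 69.2 and 75.7 in Th9 and at 13.0 and 1.80 in Th2. Both were high in Th9 alone, and both passed on the quantile-normalised scale (limma adjusted p = 0.00503 and 0.0428). Over the alternatives, the adjusted p by limma ranged from 0.00422 to 0.395 for Osbpl3 and from 0.0151 to 0.827 for Kdm6b. Of the other 7 regions with the widest gaps, those near Cmtm7, Klhdc2, Per3, Susd2 and Hadh also passed on that scale, and those near Fto and H2-DMb1 did not. The Hadh site lay in an exon of Lef1, which encodes a partner of β-catenin kept by naive T cells, at 80.0 and 57 in Th9 and 2.99 and 4.31 in Th2.

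In the opposite direction, an intron of Tank, which encodes an adaptor of TRAF proteins that restrains NF-κB signalling, had the widest gap. It stood at 2.29 and 1.40 in Th9 replicates 1 and 3 and at 85.7 and 89.7 in Th2 replicates 1 and 3. The site was among the weakest called in Th9 and among the stronger in Th2. The difference was -85.9 ± 14.7 points (SE, n = 2 and 2; limma adjusted p = 0.263), with an adjusted p of 0.00937 by limma on the quantile-normalised scale and of 0.00228 to 0.42 over the alternatives.

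Nfkbia encodes IκBα, the inhibitor of NF-κB. Its region, 34714 bp from the start, stood at 9.69 and 8.97 in Th9 and at 76.1 and 73.5 in Th2. An intron of Nipbl, the loader of cohesin onto DNA, was at 11.5 and 20.4 in Th9 and at 89.1 and 89.98 in Th2. Th9 values were low and Th2 values high in both. Those 2 sites and the 7 others of this set, near Tada2b, Zzz3, Auh, Hey1, Ammecr1l, Cerkl and Frrs1l, all passed on the quantile-normalised scale. Both scales come from the same fold enrichments, and the regions were chosen for their wide gaps. Their passing was thus largely set by the choice and is no separate test.

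**Figure D3:**
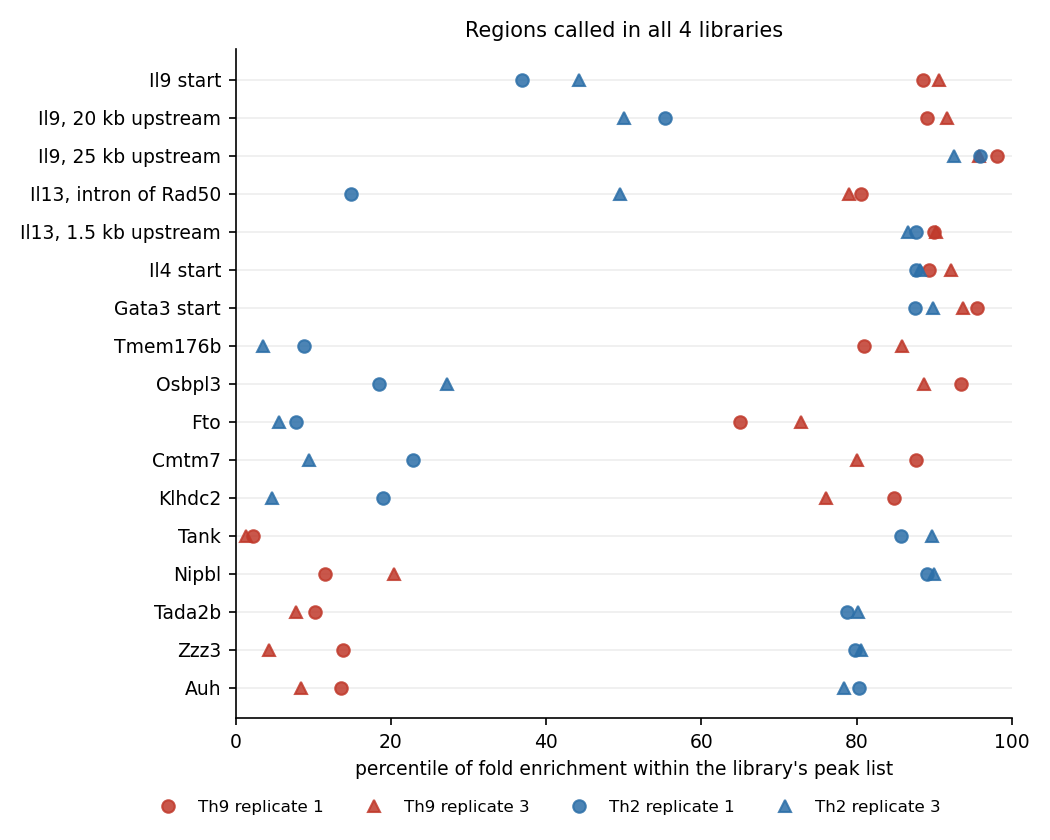
Percentile of fold enrichment within each library's own list (horizontal axis, 0 to 100) for regions called in all 4 libraries at cytokine and Gata3 loci and for the 5 regions with the widest gaps in each direction. Red symbols are Th9 and blue symbols Th2, with circles for replicate 1 and triangles for replicate 3, and the Il9 start (88.5 and 90.6 against 36.9 and 44.3) is set apart while the Il4 start and the region 25 kb upstream of Il9 lie near the top in every library.

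At Il9, only 2 of the shared sites were set apart. The start differed by 49.0 ± 11 points (SE, n = 2 and 2; limma adjusted p = 0.285). On the quantile-normalised scale, the limma adjusted p was 0.0115, with a range of 0.0105 to 0.395 over the alternatives. The site 20 kb upstream stood at 89.1 and 91.7 in Th9 and at 55.3 and 50.1 in Th2, a difference of 37.7 ± 8.82 points (limma adjusted p = 0.292, and 0.0133 on the quantile-normalised scale, with a range of 0.0133 to 0.42). Between them, a site 6170 bp upstream stood at 90.3 and 92.2 in Th9 and at 90.6 and 82.3 in Th2, with overlap. The site 25 kb upstream was at 95.8 or above in Th9 and at 92.6 and 95.9 in Th2, among the strongest of either subset. This distal site was thus near the top in both, whereas the one 20 kb upstream ranked lower in Th2.

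The Rad50 gene, which encodes a DNA repair protein, lies between Il13 and Il5 and holds elements of the Th2 locus control region. Of its shared sites assigned to Il13, one 28569 bp upstream of Il13 stood at 80.6 and 79.1 in Th9 and at 14.9 and 49.6 in Th2, a difference of 47.6 ± 15.4 points (SE; limma adjusted p = 0.348, and 0.0576 on the quantile-normalised scale, over a range of 0.0414 to 0.752). The values did not overlap, but the Th2 libraries were far apart from each other. Its neighbours 16573, 20348 and 22602 bp upstream of Il13 all stood at 84.7 to 94.6 in the 4 libraries. A Th9-only region lay 6080 bp upstream of Rad50 itself, at 78.2 and 54.9.

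Il5, which encodes the growth factor of eosinophils, had 2 shared sites of 4 at which both Th9 values were above. The one 14494 bp downstream of its start stood at 93.1 and 91.5 in Th9 and 80.9 and 65.0 in Th2, and the one 16528 bp downstream at 81.4 and 84.4 in Th9 and 68.8 and 78.8 in Th2. For the first, the difference was 19.3 ± 5.80 points (SE; limma adjusted p = 0.329, and 0.0212 on the quantile-normalised scale, over a range of 0.0179 to 0.687). The start of Il4 stood at 89.4 and 92.2 in Th9 and at 87.6 and 88.1 in Th2. The Th9 values were above the Th2 values at each, by a wide gap at the first Il5 site and a small one at the Il4 start.

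At Gata3, the start differed little. Of the 10 regions assigned to the gene, 2 were Th2-only, 0 were Th9-only and 4 were called in all 4 libraries. A site in a Gata3 intron 17954 bp from the start, which held a GATA word, was at 80.0 and 76.9 in Th2. Most of its central window was a repeat of GAA and GGA units, and the word lay outside that repeat. The part of the repeat in the calls at this site was not tested. A site 62341 bp from the start, printed as Gata3 distal, was at 79.1 and 79.0. Neither had a call in Th9. The start itself differed by 5.90 ± 1.87 points in the other direction (SE; limma adjusted p = 0.346, and 0.109 on the quantile-normalised scale, over a range of 0.0699 to 0.762).

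Rank differences varied with the distance to a gene start, but not in one direction. Within 1 kb of a start, both Th9 percentiles were above both Th2 in 34.7% of regions and below in 17.6%. Between 1 and 10 kb, the shares were 15.8% and 27.2%, and between 10 and 100 kb they were 12.9% and 27.1%. Beyond 100 kb they were 11.8% and 16.6%. From the nearest bin to the furthest, the median difference was 0.45, -1.90, -2.17 and 0.07 points. Differences of at least 20 points were more often in favour of Th2 in every bin. Within 1 kb, they favoured Th9 in 1.07% of regions and Th2 in 2.03%, the reverse of the order of the shares above and below. Regions within 1 kb were also the strongest in each library, with a median percentile of 90.8 to 93.0, and 81.2% of them were called in all 4. When the shared regions were ranked again among themselves, the shares within 1 kb were 37.7% and 15.8%, whereas beyond 100 kb the order turned to 22.1% above and 17.7% below.

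**Figure D4:**
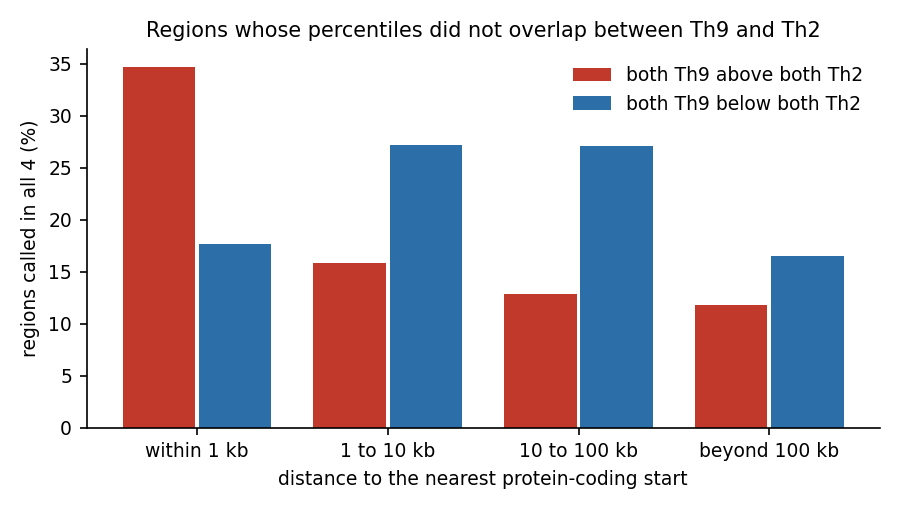
Share of regions called in all 4 libraries (vertical axis, percent) in which both Th9 percentiles lay above both Th2 percentiles (red bars) or below them (blue bars), by distance from the nearest protein-coding gene start (horizontal axis). Within 1 kb the red bar is the taller, at 34.7% against 17.6%, and in the 3 bins further out the blue bar is, an order that turned beyond 100 kb when shared regions were ranked again.

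The AP-1 and BATF word ran along the rank differences as it did along the classes. Shared regions over 1 kb from a start were cut into 10 equal groups by the difference between Th9 and Th2. The word was in 16.6% of windows in the group most in favour of Th2 and in 5.61% in the group most in favour of Th9. In each of the 4 pairs of 1 Th9 and 1 Th2 library, the share was also larger at the Th2 end, with 11.9% to 15% at that end and 3.76% to 6.89% at the other.

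The replicates set the scale for that gap. Between the 2 Th9 libraries, the ends differed little, at 8.23% and 8.63%. Between the 2 Th2 libraries, they were 9.44% and 4.02%, a gap of the same size as that of the Th9 and Th2 replicate 1 libraries, at 11.9% and 6.47%. The ends understate the range between replicates. Inside the order, the share reached 14.4% in group 3 for the Th2 replicates and 12.1% in group 5 for the Th9 replicates. A STAT5 gradient of 5.96% to 8.21% from the Th2 to the Th9 end was smaller than that between the Th2 replicates, at 8.89% and 4.08%.

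**Figure D5:**
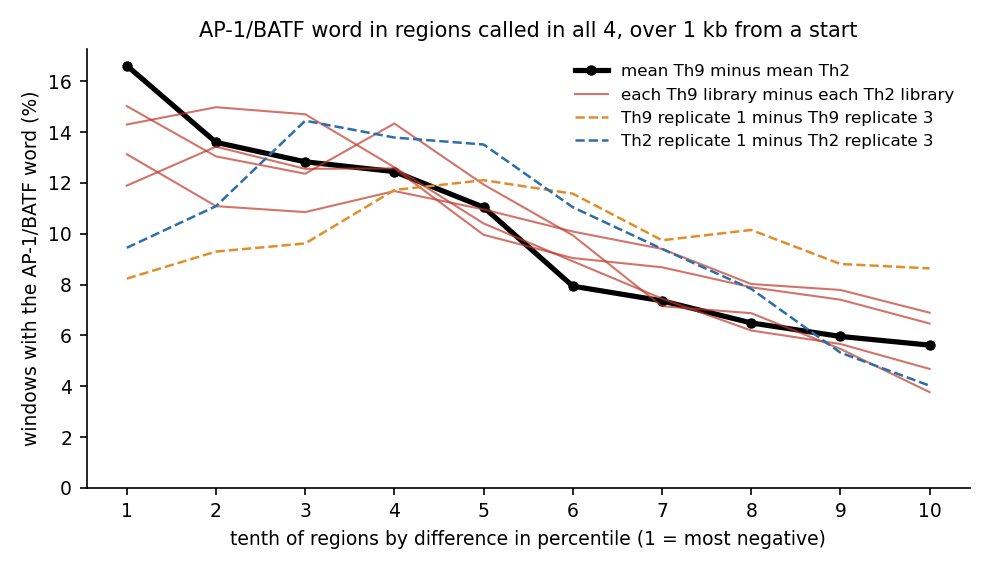
Share of windows with the AP-1/BATF word (vertical axis, percent) in 10 equal groups of shared regions ordered by a difference in percentile (horizontal axis, 1 for the most negative). The black line is the Th9 mean minus the Th2 mean, from 16.6% to 5.61%, thin red lines are the 4 pairs of 1 Th9 and 1 Th2 library, and dashed lines are the replicate pairs, of which the Th2 pair ends at 9.44% and 4.02%.

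Genes of the pathways involved were then taken from 11 lists of 147 genes. Among regions whose nearest start within 100 kb was that of any protein-coding gene, 2.67% were Th9-only and 6.43% Th2-only, and of the shared regions 19% had both Th9 percentiles above and 24.7% below. At the listed genes, 57 of 1576 regions were Th9-only (3.62%) and 107 were Th2-only (6.79%). Of their 773 shared regions, 192 (24.8%) had both Th9 values above and 202 (26.1%) below. None passed by limma on percentiles, and on the quantile-normalised scale 7 were called higher in Th9 and 14 lower. The Th2-only share and the share below were close to the background. The Th9-only share and the share above exceeded it, with no test made. The lists were chosen with earlier results of these data known, and the part of that choice in the excess was not tested. The shares over all regions near genes are the background for each list below.

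Type 2 and type 9 cytokine genes had few one-subset regions, with 1 Th9-only (1.14%) and 3 Th2-only (3.41%) among 88. Of their 45 shared regions, 14 (31.1%) had both Th9 values above and 6 (13.3%) below, with a median difference of 0.99 points beside -0.79 over all regions near genes. Of the 14, those at Il9 and at Il5 passed on the quantile-normalised scale. Il10, whose product restrains inflammation, had 2 of 12 shared regions above and 3 below, among them a site 27419 bp upstream at 42.2 and 42.9 in Th9 and at 82.2 and 78 in Th2. Csf2, the gene of GM-CSF, had 2 Th2-only sites, at 69.3 and 68.9 and at 64.5 and 71.

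Cytokines of other helper subsets had 3 Th9-only and 10 Th2-only regions among 85. The 3 Th9-only regions all belonged to Ifng, the Th1 cytokine, the strongest at 67.6 and 83.3. Th2-only regions were found at Il21 (3), Lif (3), Il2, Il17a, Il22 and Ifng (1 each). At Il21, a cytokine that helps B cells, the strongest was at 75.2 and 66.6.

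At Th2-associated regulators, 16 of 149 regions were Th2-only (10.7%) and 5 were Th9-only (3.36%). Over all regions near genes, the shares were 6.43% and 2.67%. Of the 85 shared regions at these regulators, 34 (40%) had both Th9 values below and 19 (22.4%) above. Over all shared regions near genes, 24.7% were below and 19% above. The median difference at these regulators was -2.73 points, and 4 sites were called lower in Th9 on the quantile-normalised scale. Gfi1, a repressor that promotes the growth of Th2 cells, had 6 Th2-only regions, the strongest at 80.1 and 71.8, although 2 of its 7 shared regions had both Th9 values above and 0 below.

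The 4 calls of that list came from 3 genes. They were a site in an intron of Ikzf1, the gene of Ikaros, at 87.8 and 82.9 in Th9 and 96.0 and 96.3 in Th2, and 2 sites of Bhlhe41, which encodes a repressor of the circadian clock family. The fourth was an intron site of Rbpj, the partner of Notch, at 17.8 and 35.2 in Th9 and 83.7 and 82.8 in Th2. Rbpj was divided within itself. It had 4 Th9-only sites, at 42.1 to 74.9, and 4 Th2-only sites, at 20.3 to 69.2.

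Th9-associated regulators had 9 Th9-only (4.48%) and 10 Th2-only (4.98%) among 201 regions. Over all regions near genes, the shares were 2.67% and 6.43%. Of 102 shared regions, 28 (27.5%) had both Th9 values above and 21 (20.6%) below. Irf4, a factor needed by both subsets, had 4 Th2-only regions, the strongest at 60.9 and 74.9. A shared site 84775 bp beyond its start was at 86.5 and 75.6 in Th9 and at 57.2 and 50.5 in Th2. Erg, an ETS factor, had 5 Th9-only and 2 Th2-only regions, all of them at 68.3 or lower. Stat5b had a Th9-only region across one of its starts, at 66.9 and 54.1.

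The TGF-β pathway differed between the cultures by design. Of 253 regions at its genes, 11 were Th9-only (4.35%) and 18 Th2-only (7.11%). Of its 119 shared regions, 25 (21%) had both Th9 values above and 37 (31.1%) below. Over all regions near genes, these shares were 2.67%, 6.43%, 19% and 24.7%. Among the shared sites of the pathway, 3 were called lower in Th9 on the quantile-normalised scale. One lay 36913 bp upstream of Tgfbr2, the receptor chain that binds the ligand, at 84.4 and 82.9 in Th9 and at 94.4 and 96.7 in Th2. The others lay at Ldlrad4, a negative regulator of the pathway (85.8 and 80.3 against 96.4 and 96.8), and at Smad2, a signal transducer (23.0 and 47.7 against 83.6 and 84.6).

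Tgfbr1, the other receptor chain, and Smad4, the partner common to the signalling SMAD proteins, each had a strong Th2-only region. The region in an intron of Tgfbr1 stood at 79.8 and 90.1, and the one at Smad4 at 87.9 and 91.4. Smad3 had 2 Th9-only and 2 Th2-only regions. Smad7, the inhibitory SMAD, had 1 Th9-only region, at 65.7 and 17.5.

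Genes of IL-4 and IL-2 signalling and of STAT feedback had 2 Th9-only and 8 Th2-only regions among 98, and 18 of 55 shared regions (32.7%) went each way. The suppressors of cytokine signalling held both calls in favour of Th9 on the quantile-normalised scale. The Socs3 start was at 98.3 and 97.8 in Th9 and at 94.0 and 91.4 in Th2, and a site 26616 bp from the Socs1 start was at 91.4 and 91.1 in Th9 and at 76.1 and 72.4 in Th2. Socs1 also had a Th9-only site 33063 bp from its start, at 82.3 and 81.9, with a STAT5 word, and 4 Th2-only sites, the strongest at 50.5 and 51.2. Of its 8 shared regions, 5 had both Th9 values above and 2 below.

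Jak1, the kinase shared by the IL-4 and IL-2 receptors, held both calls in the other direction. Of its 20 shared regions, 12 had both Th9 values below, with 1 above. Over all shared regions near genes, 24.7% were below and 19% above, and neighbouring regions of a gene are not replicates. In an intron of Jak1, 8481 bp from the start, a site stood at 15.6 and 3.66 in Th9 and at 71.3 and 73.7 in Th2. Il2rb, the β chain of the IL-2 receptor, had a Th9-only region at 69.3 and 66.2. Il4ra had a Th2-only region at 64.6 and 73.1, 11160 bp upstream.

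Other cytokine receptors had 7 Th9-only and 9 Th2-only among 155 regions. Of their 71 shared regions, 28 (39.4%) had both Th9 values above, with 15 (21.1%) below. Over all shared regions near genes, 19% were above and 24.7% below. None of the 71 was called on either scale. Il1rl1, which encodes the receptor for IL-33, had a Th9-only site in an intron, at 47.0 and 70.8, and a Th2-only site 46652 bp upstream, at 10.8 and 41.2. Il7r had a Th2-only site at 72.5 and 81.3.

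Chemokine receptors had 3 Th9-only and 4 Th2-only regions among 112, and 15 (27.8%) and 13 (24.1%) of 54 shared regions above and below. Ccr6 had a site 26026 bp upstream at 89.6 and 80.3 in Th9 and at 52.1 and 21.8 in Th2. Ccr2 had one 2604 bp upstream at 68.0 and 39.1 in Th9 and at 88.6 and 92.3 in Th2. The libraries did not overlap at either, and both passed on the quantile-normalised scale, in opposite directions. Ccr7, the receptor that brings naive T cells to lymph nodes, had a Th9-only site at 88.7 and 55.8.

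Costimulatory and inhibitory receptors had 8 Th9-only and 13 Th2-only regions among 160, and 13 (16.2%) and 21 (26.2%) of 80 shared regions above and below. Ctla4, the inhibitory receptor for CD80 and CD86, had 4 Th9-only sites, 14919 to 28679 bp upstream of the nearest start of its protein-coding transcripts. A longer annotated transcript begins further upstream, so that 2 of the 4 lay within the gene and the strongest, printed as Ctla4, spanned its outermost 5′ end at 84.5 and 86.1. The other 3 stood at 71.6 and 70.7, at 69.0 and 64.9 and at 40.9 and 48.5. Ctla4 also had a Th2-only site, at 13.3 and 50.3, and 2 of its 9 shared regions had both Th9 values above and 1 below. Next to it on the chromosome, Cd28, the activating receptor for the same ligands, had 4 Th2-only sites, the strongest at 72.9 and 82.1.

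Tigit, another inhibitory receptor, had 0 Th9-only and 2 Th2-only sites, at 89.7 and 79.9 and at 74.3 and 64.0. Of its 6 shared sites, 1 had both Th9 values above and 2 below, among them one 32064 bp upstream at 82.2 and 83.8 in Th9 and 96.3 and 97.9 in Th2. Cd83 had 2 Th9-only sites and a shared site at 84.2 and 86.1 in Th9 and 57.3 and 46.2 in Th2. The shared sites of Tigit and Cd83, and one each at Icos and Tnfsf8, were the 4 called on the quantile-normalised scale, 2 in each direction.

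Regulators of other T cell lineages and of the naive state had 6 Th9-only and 13 Th2-only regions among 224. Rora, which encodes a nuclear receptor of Th17 and innate lymphoid cells, had 4 of the 6, with the strongest at 83.3 and 82.9 and at 82.0 and 79.1. Satb1, a chromatin organiser of thymocytes and naive T cells, had 7 of the 13, all at 69.9 or lower. At Satb1, 6 of 14 shared sites had both Th9 values below both Th2 values and 0 above. Over all shared regions near genes, 24.7% were below and 19% above. One of the 6, 66397 bp upstream at 44.0 and 68.9 in Th9 and 89.0 and 90.1 in Th2, was among the 2 called on the quantile-normalised scale. The other lay 96276 bp upstream of Eomes, a factor of cytotoxic cells.

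Markers of other cell types were listed because cells of the spleen may be carried over. The 16 genes had 51 regions, of which 2 were Th9-only (3.92%) and 3 Th2-only (5.88%). These shares are near the 2.67% and 6.43% over all regions near genes. A further 21 were shared, with both Th9 values above in 2 and below in 5. Carry-over common to both cultures would not give one-subset regions, so these counts cannot show it. The Th9-only regions were at the B cell genes Cd79b (7.52 and 12.9) and Ms4a1 (61.1 and 74.9), and the Th2-only regions at Cpa3, Cd79a and Itgam. The part of other cells in the differences between subsets was not tested.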

How the data were processed

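ATAC-seq peak lists of 2 Th9 and 2 Th2 libraries (replicates 1 and 3), on mm10, were analysed. The 2 Th17 libraries entered only the count in the closing section. Per the submitters' processing notes, reads were trimmed with Trim Galore 0.4.3, aligned with Bowtie2, handled with Picard, and peaks were called per library with MACS2 2.1.0. The study's methods give paired-end input, broad peaks and no local estimate of background, so the fold is against a background for the whole library. The authors deposited, for each peak, a score, the fold enrichment (a linear ratio against background) and both the p- and the q-value as −log10. Read totals were not given in the sources used here. A background coverage, which rises with sequencing depth, was recovered from the fold enrichments and p-values of the peaks. It was 5.65 and 12.1 in Th9 replicates 1 and 3 and 11.2 and 15.2 in Th2 replicates 1 and 3. It was thus lowest in Th9 replicate 1, and the part of unequal depth in the results was not tested. The lowest −log10 q in a list was 1.02 to 1.15. Peaks give no read counts, so intervals cover the counting of regions only.

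From the deposited fold enrichment, percentiles were computed within each list (chromosomes 1 to 19). Peaks that overlapped or touched were joined, and 1 bp of overlap made a call. A region took its highest percentile. Regions called in all 4 were tested with limma 3.58.1 (trend, R 4.3.3) on percentiles, 2 against 2, two-sided, Benjamini-Hochberg threshold 0.05. Log2 fold enrichment, quantile-normalised, was an alternative computed here. Distances run from the region's centre to the nearest of the starts of 20807 protein-coding genes (GENCODE M21 basic). GC and words were read from RefSeq GRCm38.p6, to which chromosome lengths matched. Python 3.11.15, pandas 2.3.3 and scipy 1.17.1 were used, and the scripts were tested on simulated data.

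Named regions were the 10 strongest of each one-subset class, the 10 widest gaps between non-overlapping subsets in each direction, and regions of the listed genes, within 100 kb of a start and 1 per gene for the first 2 sets. The members and lists were chosen with earlier results of these data known. Same-numbered replicates were not taken as pairs, since 2 pairs cannot show it and no source states it. Alternatives were other thresholds on peaks, lists of equal length, each library left out, other scales, fixed 1 kb bins and a replicate block.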

Additional observations from a re-analysis of the deposited data

Results flagged for a closer look

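The Th17 lists, which no comparison between Th9 and Th2 uses, held a signal at one-subset regions and are given here for that reason. Both Th17 libraries called 686 of the 4879 Th9-only regions (14.1%) and 3582 of the 13757 Th2-only regions (26%). Over all regions, the share was 35.4%, and over regions called in all 4 it was 83.5%. Neither Th17 library called 62.5% of Th9-only and 47.7% of Th2-only regions. The classes also differ in strength, with median lower percentiles of 18.8 and 28.7, and the difference in share was not tested. The Th9-only site in an exon of Il1r1 near Il1rl2 stood at percentiles 73.4 and 60.3 in Th17 replicates 1 and 3.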

How the results depend on the processing

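The count of Th9-only regions was 4879. It was 664 with a minimum −log10 q of 5, 1005 at a minimum fold enrichment of 4, 8614 in bins of 1 kb and 622 with both percentiles at 50 or above, and 7641 to 37189 when 1 library was left out. The count of Th2-only regions, 13757, was 7976, 2221, 27607 and 3386 under the same settings, 5393 at a minimum fold enrichment of 2.2, chosen after seeing the data, and 18528 to 39808 without 1 library. Regions called in all libraries, 58886, were 27873, 14807 and 111294 under the first 3, 33346 where half-covered regions (50%) were required, and 61977 to 70672 without 1 library. A smaller number of libraries makes each class larger by construction. All 10 of the named regions of each class were kept at −log10 q of 5, at fold enrichments of 4 and of 2.2 and with lists of equal length. They had been chosen as the strongest of their class, and the lowest fold enrichment among the Th9-only ones was 4.40. A stricter limit removes peaks and adds none, so that outcome was largely set by the choice and is no test of these regions.

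By limma, 0 shared regions were called in either direction on percentiles. Normal scores gave 23 higher and 198 lower, quantile-normalised log2 values 259 and 816, and log2 values as deposited 329 and 763. Leaving out 1 library gave 0 to 52 higher and 0 to 2903 lower, with 23 and 2903 without Th9 replicate 1, 0 and 139 without Th9 replicate 3, 52 and 0 without Th2 replicate 1 and 1 and 0 without Th2 replicate 3. The lone library of a subset is then assumed to vary like the other subset. With the replicate number as a block, 482 were called higher and 1865 lower. The deviations of same-numbered libraries had a correlation of 0.162, and with 2 pairs the numbers were not taken to pair the samples. Of the 46 named shared regions, 24 passed with the block and 21 on quantile-normalised values. Those with the widest gaps had been chosen on the same fold enrichments, so their passing is no separate test.

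The difference in the share within 1 kb of a start, 0.48 points, was -0.72 at −log10 q of 5, -1.18 for a limit of 5 kb, 18.3 at a fold enrichment of 4, 1.51 at 2.2, and -0.57 without Th9 replicate 3 to 2.48 in the other settings with a library left out, among them -0.01 without Th2 replicate 1. The GC difference of 4.5 points was 2.0 at −log10 q of 5 and 3.0 to 4.0 without 1 library. Of the 8 words, 4 were more frequent in Th9-only regions, and 1 to 6 were without 1 library. Signs turned for STAT6 (1.84 at −log10 q of 5, 1.60 at a fold enrichment of 4, and -1.73 to 0.55 without 1 library, positive without Th2 replicate 3), SMAD (-0.15 at 4), ETS (-1.01 to 0.95 without 1 library, positive without Th2 replicate 3), RUNX (-1.18 at 4, and -0.73 without Th9 replicate 3 to 5.25), CpG-rich sequence (-0.25 at −log10 q of 5, and -0.12 without Th9 replicate 3 to 1.21) and STAT5 (-0.30 without Th9 replicate 3 to 3.03). Among shared locus regions with small differences in percentile, the range without 1 library crossed 0 at Il9 (-5.78 to 0.28 and -4.66 to 1.29), Il13 (-2.58 to 2.13 and -4.80 to 0.76), Il4 (-23.50 to 21.63), Il5 (-16.90 to 9.44) and Gata3 (-4.58 to 3.12 and -24.59 to 3.8), and signs turned on other scales at Il13 (2.36 re-ranked, 0.055 quantile-normalised) and Gata3 (1.75 and 0.028). The cause was not tested.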

Other observations

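Genes that gathered the most one-subset regions were counted by a rule added after the data were seen. Th9-only regions were most numerous at Atp2b2, a calcium pump (15 of 86 regions), and at Adgrb1, Grik3 and Zfp423 (11 each), none of which had a Th2-only region. Adgrb1 and Grik3 are known from the nervous system, and Zfp423 from fat and neural cells. Th2-only regions were most numerous at Pde4d, a phosphodiesterase that degrades cyclic AMP (30 of 191 regions, with no Th9-only region). Its relative Pde4b had 11, as did Foxp1, a keeper of T cell quiescence, which also had 4 Th9-only regions. Vav3, an exchange factor of antigen receptor signalling, and Inpp4b, a phosphatase of phosphoinositides, had 10 each. The numbers of regions searched per gene differ, and no test of these genes was made.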
